A study of Mus musculus with 8 samples.

Results

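Inhibitory receptors of B cells were examined through 8 genes, 6 receptors and the phosphatases Ptpn6 and Ptprc, out of 19937 genes measured in sorted mouse spleen B cells. The members were chosen by name: Cd22, Siglecg, Cd72, Pirb, Lair1, Pecam1, Ptpn6 and Ptprc. Each was represented by a probe set that the array's annotation pairs with that gene alone, and each of the 8 genes had exactly 1 such probe set. The first group was Sca1-HGAL mice, described as knock-in in the sample labels and as transgenic in the study design, which carry human HGAL driven by the Sca1 (Ly-6E.1) promoter, which is active in blood stem and progenitor cells. They were set against wild-type mice, which the design describes as littermates. Both groups were adult, of the CBAxC57BL/6J strain, and supplied spleen cells sorted by flow cytometry as positive for CD22 and B220. Each group had 4 samples, with 1 Affymetrix Mouse Gene 1.0 ST array per sample, and the labels do not say whether a sample was 1 animal or a pool. P-values therefore measure the spread between these samples. Levels are log2 intensities, and a log2 fold is Sca1-HGAL minus wild-type with its standard error (SE).

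An immunoreceptor tyrosine-based inhibitory motif (ITIM) is a short tyrosine-containing sequence in the cytoplasmic tail of a receptor. When a Src family kinase such as Lyn phosphorylates it, the motif binds phosphatases that carry SH2 domains, above all SHP-1, the product of Ptpn6, and these damp signalling from the B-cell receptor. CD45, encoded by Ptprc, has no such inhibitory motif and acts on the kinases instead, by removing the inhibitory phosphate of Src family members. B220, used in the sort, is a form of CD45. HGAL is an adaptor of germinal centre B cells, and the study's title concerns its effect on Syk activation downstream of the B-cell receptor.

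The arrays were close to each other in brightness, with median deposited intensities between 145.2 and 151.4. The human HGAL sequence was not analysed here, and Gcsam, its mouse counterpart, had a log2 fold of -0.29 (SE 0.17) with a limma adjusted p = 0.618, and -0.02 without the 2 arrays with high Xist described next. The precision of every comparison is limited by the 4 arrays per group. Over all 21640 probe sets tested, 1 passed limma at an adjusted p under 0.05, which is 0.00462%, and it was that of St3gal5. Wild-type replicates 2 and 4 carried Xist, which silences an X chromosome in female cells, at 12.17 and 12.18 while no other array exceeded 5.65, and results were also computed without them. On these 2 arrays Eif2s3y, a gene of the Y chromosome, stood at 4.22 and 3.96, against 10.21 to 10.61 on the others. Both genes were thus split within the wild-type group and not within the Sca1-HGAL group. The labels give no batch. All 8 measured B cell markers had a mean above log2 6 in both groups. So did 15782 of all 19937 genes in Sca1-HGAL arrays and 15666 in wild-type arrays, so this count does not show purity. In bulk RNA of this kind, fewer cells of a type and less RNA per cell cannot be told apart.

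None of the 8 member genes passed limma at an adjusted p under 0.05. At an unadjusted p under 0.05, 1 of the 8 was higher and 0 were lower in Sca1-HGAL arrays, where 9.53% of all genes passed, 5.49% higher and 4.03% lower. The gene was Pirb, which was also the 1 member whose groups did not overlap, where 5.48% of all genes were separate, 3.10% wholly higher and 2.37% wholly lower. Read against those shares, 1 gene of 8 is not a result about the set as a whole. Across the members the median log2 fold was 0.01, against 0.02 over all genes, with members ranging from -0.19 to 0.46. Of all 19937 genes, 11238 had a positive and 8699 a negative log2 fold. Counts of signs in the lists below are to be read beside that share.

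**Figure D1:**
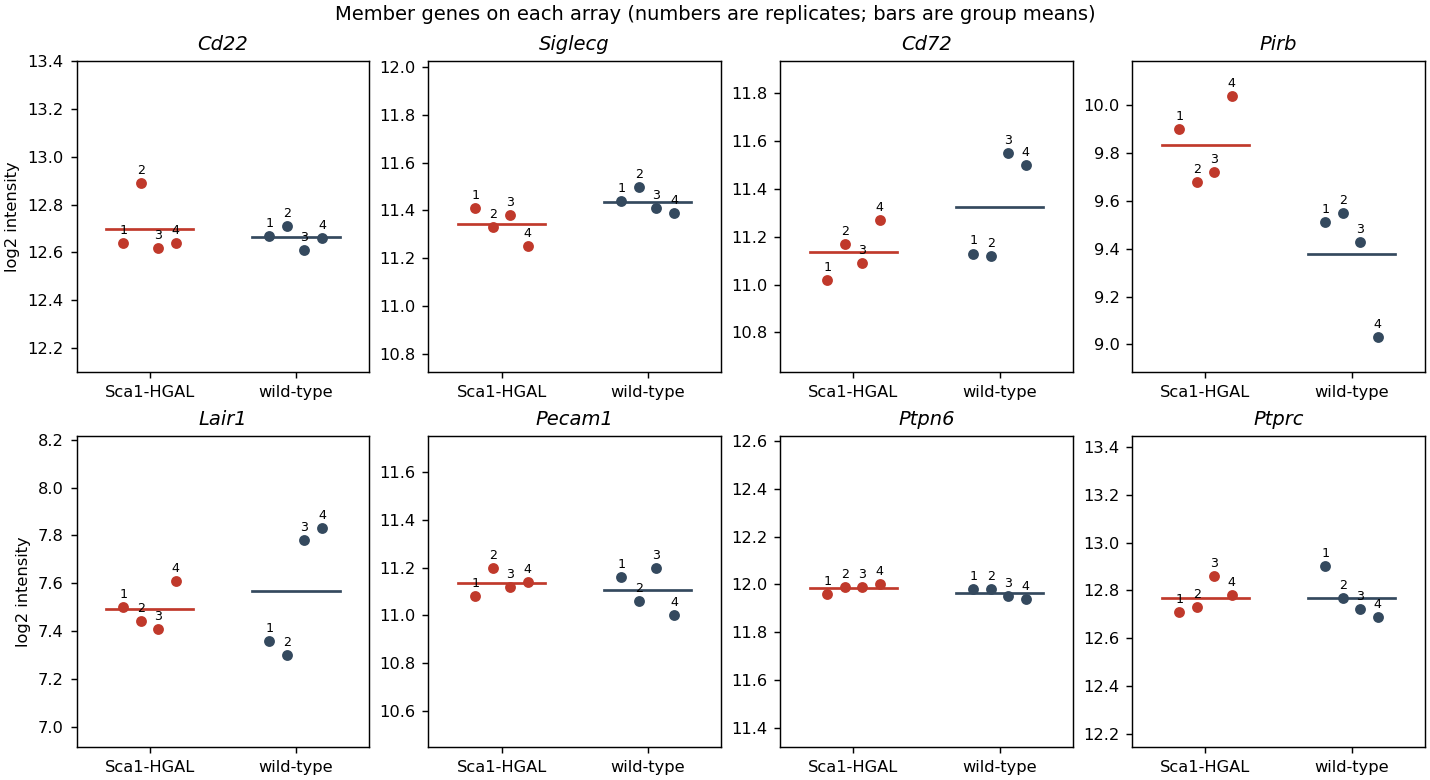
Log2 intensity of each member gene on each array, with 1 panel per gene, 4 Sca1-HGAL arrays on the left and 4 wild-type arrays on the right of each panel, replicate numbers above the points and bars at the group means; every panel spans the same number of log2 units. Pirb is the panel in which the groups do not overlap, and in Cd72 and Lair1 wild-type replicates 3 and 4 lie above the rest.

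Cd22 and Siglecg are sialic acid-binding receptors of the Siglec family, and both carry ITIMs that recruit SHP-1. Cd22, which is also a marker of the sort, stood at 12.64, 12.89, 12.62 and 12.64 in Sca1-HGAL replicates 1 to 4, against 12.67, 12.71, 12.61 and 12.66 in wild-type replicates 1 to 4. The groups overlapped, and Sca1-HGAL replicate 2 was the highest of all arrays. The log2 fold of Cd22 was 0.04 (SE 0.07, limma adjusted p = 0.92), with a 95% confidence interval from -0.13 to 0.20. Because cells were gated on CD22 protein, the sort bounds what this comparison can show of Cd22. Siglecg, which in mice restrains B-cell receptor signalling chiefly in B-1 cells, stood at 11.41, 11.33, 11.38 and 11.25 in Sca1-HGAL arrays, against 11.44, 11.50, 11.41 and 11.39 in wild-type arrays. Its ranges met only between 11.39 and 11.41, with wild-type arrays on the upper side. For Siglecg the log2 fold was -0.09 (SE 0.06, limma adjusted p = 0.674), with a 95% confidence interval from -0.22 to 0.04.

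Pirb encodes paired immunoglobulin-like receptor B, an ITIM receptor for MHC class I that is present on mouse B cells and myeloid cells. Pirb stood at 9.90, 9.68, 9.72 and 10.04 in Sca1-HGAL arrays, against 9.51, 9.55, 9.43 and 9.03 in wild-type arrays. The lowest Sca1-HGAL array, at 9.68, was above the highest wild-type array, at 9.55, and wild-type replicate 4 was the lowest of all. The means were 9.84 ± 0.17 (SD, n = 4) in Sca1-HGAL arrays and 9.38 ± 0.24 (SD, n = 4) in wild-type arrays. The log2 fold of Pirb was 0.46 (SE 0.12), or 1.37-fold, with a 95% confidence interval from 0.18 to 0.73. It did not pass over all probe sets (limma adjusted p = 0.282, unadjusted p = 0.0041), and the gene ranked 286 of 19937 by p. Over 20 alternative settings the log2 fold of Pirb lay between 0.34 and 0.51, and its adjusted p between 0.18 and 0.563.

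Pirb lies among the activating Pira genes, whose products share most of the extracellular sequence of PIR-B but lack ITIMs, so probes can read several of them. Beside the probe set of Pirb alone, 2 probe sets were annotated to 6 symbols each, Gm15448, Gm10693, Pirb, Lilra6, Pira2 and Pira1. The first of these stood at 10.003, 9.82, 9.73 and 10.23 in Sca1-HGAL arrays, against 9.55, 9.56, 9.35 and 9.18 in wild-type arrays. The second stood at 10.10, 9.69, 9.74 and 10.41 in Sca1-HGAL arrays, against 9.62, 9.56, 9.34 and 8.70 in wild-type arrays. On both, the groups were again apart with Sca1-HGAL replicate 4 highest and wild-type replicate 4 lowest, the same arrays that held those places for Pirb. The log2 folds were 0.53 (SE 0.13, limma adjusted p = 0.327 over all 34760 probe sets) and 0.68 (SE 0.23, adjusted p = 0.482), and Pirb in the same fit had an adjusted p = 0.424. In that fit 0.00288% of all probe sets passed the adjusted threshold, 4.37% were higher at an unadjusted p under 0.05 and 2.74% lay wholly higher in Sca1-HGAL arrays. The 3 probe sets share arrays and gene names and are not independent measurements, and the 2 shared ones do not tell Pirb from its neighbours.

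**Figure D2:**
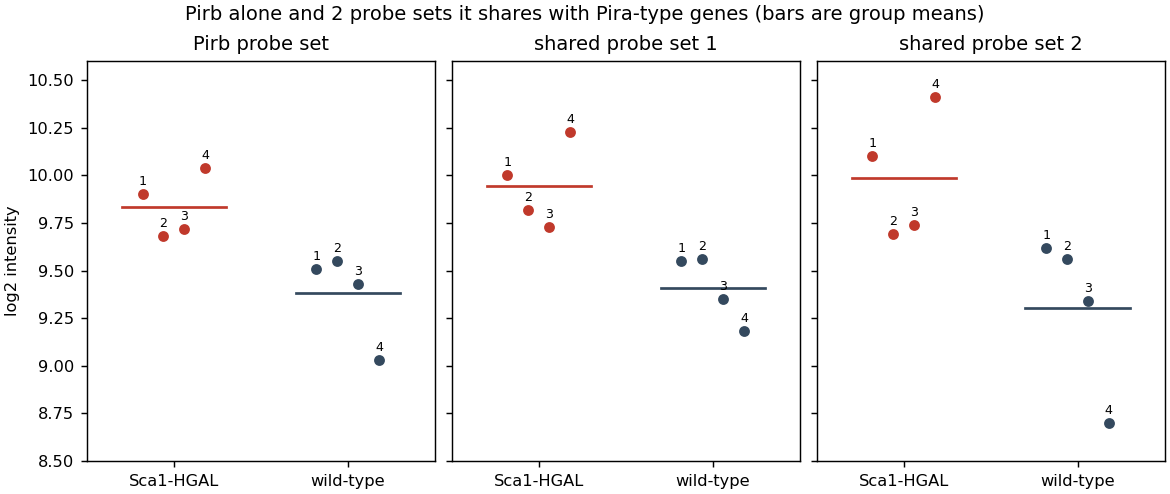
Log2 intensity of the probe set of Pirb alone and of the 2 probe sets annotated to 6 symbols each, with Sca1-HGAL arrays on the left, wild-type arrays on the right, replicate numbers above the points and bars at the group means. In all 3 panels each Sca1-HGAL array lies above each wild-type array, and replicate 4 is the highest Sca1-HGAL and the lowest wild-type array.

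Lair1 encodes an ITIM receptor for collagens, and its gene lies on the same chromosome as Pirb, with 11 annotated genes between them in the RefSeq gene order. Lair1 stood at 7.50, 7.44, 7.41 and 7.61 in Sca1-HGAL arrays, against 7.36, 7.30, 7.78 and 7.83 in wild-type arrays. The Sca1-HGAL arrays lay inside the wild-type range, between a low wild-type pair, replicates 1 and 2, and a high pair, replicates 3 and 4. For Lair1 the log2 fold was -0.08 (SE 0.12, limma adjusted p = 0.889), with a 95% confidence interval from -0.35 to 0.20. Cd72, a C-type lectin-like receptor whose ITIM binds SHP-1 and whose ligands include semaphorin 4D, stood at 11.02, 11.17, 11.09 and 11.27 in Sca1-HGAL arrays, against 11.13, 11.12, 11.55 and 11.50 in wild-type arrays. Wild-type replicates 3 and 4 were again the highest 2 arrays, and the other 2 wild-type arrays lay within the Sca1-HGAL range. The log2 fold of Cd72 was -0.19 (SE 0.11, limma adjusted p = 0.638), with a 95% confidence interval from -0.43 to 0.06. Without wild-type replicate 3 it was -0.11 and without wild-type replicate 4 it was -0.13, and without wild-type replicate 2 it was -0.25 with an unadjusted p = 0.048.

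Cd72 and Lair1 thus shared the arrays on which they were high. Over the 8 arrays their levels had a Pearson r of 0.887, given as a description only, since wild-type replicates 3 and 4 stand apart from the other arrays on both genes. The 2 arrays with high Xist were wild-type replicates 2 and 4, a different pair. Of the plasmacytoid dendritic cell markers, 4 of 5 were measured, and their mean log2 level was 7.42, 7.40, 7.35 and 7.58 in Sca1-HGAL arrays, against 7.65, 7.66, 8.26 and 7.92 in wild-type arrays. Wild-type replicates 3 and 4 were highest here too. All 4 markers had a negative log2 fold, among them Siglech at -0.68 and Ccr9 at -0.83, and their part in the levels of Cd72 and Lair1 was not tested.

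**Figure D3:**
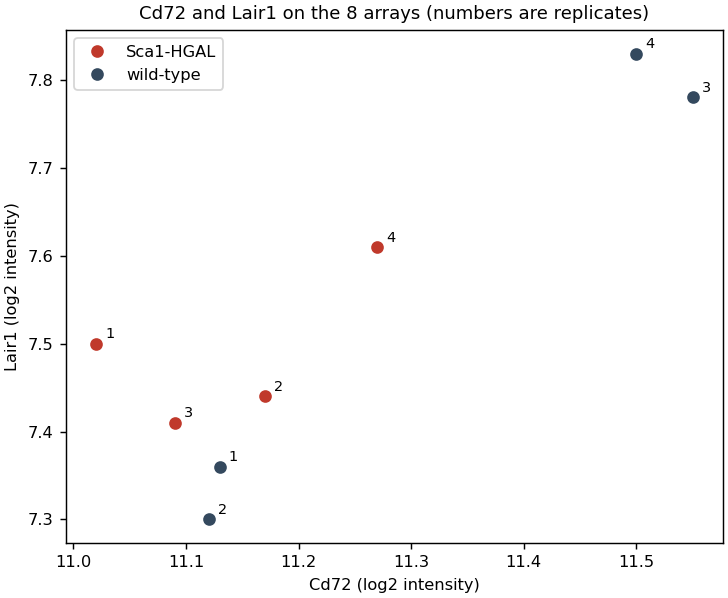
Log2 intensity of Cd72 (horizontal) against that of Lair1 (vertical), 1 point per array with its replicate number, Sca1-HGAL and wild-type arrays in different colours. Wild-type replicates 3 and 4 stand at the upper right, and the other 6 arrays reach at most 11.27 for Cd72 and 7.61 for Lair1.

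The promoter sequences of Pirb, Lair1 and Cd72 are printed because Pirb was the member with separate groups and Lair1 and Cd72 were high on the same arrays. They come from RefSeq on GRCm38.p6, where 7 of the 8 members had an entry, and each window runs from 250 bases before to 50 bases after the annotated start. Pirb is chr7:3720333-3720632, Lair1 is chr7:4063155-4063454 and Cd72 is chr4:43454577-43454876, all on the minus strand and printed 5′ to 3′. Capitals mark GAGGAA on either strand, the core bound by PU.1, a transcription factor of B cells and myeloid cells.
Pirb: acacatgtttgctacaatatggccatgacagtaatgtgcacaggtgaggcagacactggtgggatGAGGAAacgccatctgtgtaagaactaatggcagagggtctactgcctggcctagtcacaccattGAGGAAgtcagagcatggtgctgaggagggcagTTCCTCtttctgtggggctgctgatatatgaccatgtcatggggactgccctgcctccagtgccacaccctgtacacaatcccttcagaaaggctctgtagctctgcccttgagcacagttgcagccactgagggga
Lair1: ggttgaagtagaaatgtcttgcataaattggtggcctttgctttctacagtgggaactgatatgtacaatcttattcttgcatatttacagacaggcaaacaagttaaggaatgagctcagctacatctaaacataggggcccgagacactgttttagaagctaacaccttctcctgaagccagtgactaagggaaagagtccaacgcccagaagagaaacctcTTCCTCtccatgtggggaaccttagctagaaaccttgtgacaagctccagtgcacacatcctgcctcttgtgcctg
Cd72: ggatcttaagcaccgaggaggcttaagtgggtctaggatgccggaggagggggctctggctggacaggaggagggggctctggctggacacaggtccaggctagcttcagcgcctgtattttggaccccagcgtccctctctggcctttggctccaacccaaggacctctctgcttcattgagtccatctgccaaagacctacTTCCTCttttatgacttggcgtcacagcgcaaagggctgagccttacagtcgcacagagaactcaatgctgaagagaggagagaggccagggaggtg
The Pirb window held 3 matches to GAGGAA, that of Lair1 held 1 and that of Cd72 held 1, where 28.3% of all 32851 promoter windows of the same length held at least 1. Of the members not printed, Siglecg held 2 and Ptprc 1 in entry 1 of the 2 entries each had. Entry 2 of each, and the windows of Cd22 and Ptpn6, held 0. The window of Cd22 held 1 match to the palindromic motif of EBF1, a B-lineage factor, which 0.904% of windows held. Neither the octamer ATTTGCAT nor TATAAA was found in the windows of Pirb, Lair1 or Cd72, against 1.74% and 13.6% of all windows. Both strands were searched, no 2 of these motifs overlapped in the printed windows, and a match is a run of letters, not a binding site.

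Pecam1 encodes CD31, an adhesion receptor of leukocytes, platelets and endothelium whose ITIMs bind SH2-domain phosphatases. Pecam1 stood at 11.084, 11.204, 11.123 and 11.138 in Sca1-HGAL arrays, against 11.158, 11.063, 11.198 and 10.999 in wild-type arrays. The groups overlapped, and wild-type replicate 4 was the lowest of all arrays. For Pecam1 the log2 fold was 0.03 (SE 0.06, limma adjusted p = 0.918), with a 95% confidence interval from -0.11 to 0.17. Of 10 endothelial markers, 8 had a positive and 2 a negative log2 fold, with a mean log2 level from 6.47 to 6.62 in Sca1-HGAL arrays and from 6.51 to 6.56 in wild-type arrays. Of 6 measured platelet and megakaryocyte markers, 5 were positive and 0 had an unadjusted p under 0.05, against 9.53% of all genes. Their mean level ran from 7.50 to 8.25 in Sca1-HGAL arrays and from 7.28 to 7.71 in wild-type arrays, and their part in Pecam1 was not tested.

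Ptpn6, the gene of the phosphatase that most of these receptors recruit, was the steadiest member. Ptpn6 stood at 11.96, 11.99, 11.99 and 12.00 in Sca1-HGAL arrays, against 11.98, 11.98, 11.95 and 11.94 in wild-type arrays. The groups overlapped, and all 8 arrays lay between 11.94 and 12.00. For Ptpn6 the log2 fold was 0.02 (SE 0.05, limma adjusted p = 0.948), with a 95% confidence interval from -0.10 to 0.13. Its SD within groups, pooled over both, was 0.019, and only 3 of 19937 genes had a smaller one, against a median of 0.11. limma draws such small variances towards those of other genes, so its SE is wider than the SD of these arrays alone would give.

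Ptprc, the gene of CD45, stood at 12.71, 12.73, 12.86 and 12.78 in Sca1-HGAL arrays, against 12.90, 12.77, 12.72 and 12.69 in wild-type arrays. The Sca1-HGAL arrays lay within the wild-type range. For Ptprc the log2 fold was 0.00 (SE 0.07, limma adjusted p = 0.995), with a 95% confidence interval from -0.15 to 0.14. The probe set summarises the whole gene, so the B220 form used in the sort was not measured apart from other CD45 forms. Within-group spread differed among the members, with a pooled SD of 0.21 for Lair1, 0.20 for Pirb, 0.18 for Cd72, 0.10 for Cd22, 0.08 for Ptprc, 0.07 for Pecam1 and 0.06 for Siglecg. Lair1, Pirb and Cd72 exceeded the median gene, and the other 5 members did not.

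**Figure D4:**
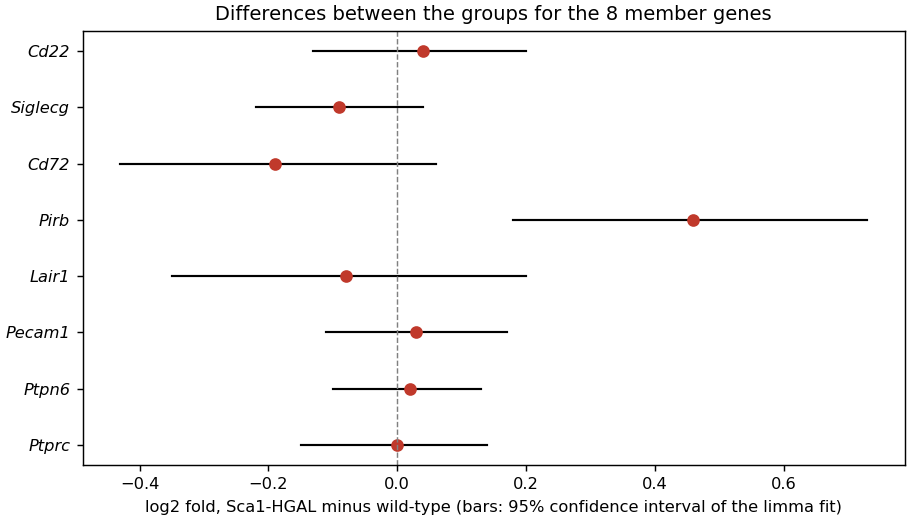
Log2 fold (Sca1-HGAL minus wild-type, horizontal) of the 8 member genes, with points at the limma estimate and bars over its 95% confidence interval, unadjusted for the number of genes. The interval of Pirb, from 0.18 to 0.73, lies above 0, and those of the other 7 genes include 0.

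Other receptors with ITIMs were listed as a comparison, with 19 named and 19 measured, and none passed the adjusted threshold. Their median log2 fold was 0.12, with 15 positive and 4 negative, against 0.02 over all genes. At an unadjusted p under 0.05, 6 were higher and 1 was lower, or 36.8% of the list, against 9.53% of all genes. Fcgr2b, the inhibitory Fc receptor, which recruits the lipid phosphatase SHIP-1, stood at 11.76, 11.72, 11.54 and 11.77 in Sca1-HGAL arrays, against 11.36, 11.25, 11.18 and 11.32 in wild-type arrays. The groups did not overlap, and the log2 fold of Fcgr2b was 0.42 (SE 0.07, limma adjusted p = 0.119). Without Sca1-HGAL replicate 3 its adjusted p was 0.0416, and over the other alternatives it was above 0.05. For Sirpa, the receptor for CD47, the difference was 0.65 log2 units (SE 0.15, limma adjusted p = 0.198), with all Sca1-HGAL arrays above all wild-type arrays, and without Sca1-HGAL replicate 3 its adjusted p was 0.0283. Lilrb4a, an ITIM receptor of myeloid and some lymphoid cells, had 0.64 (SE 0.17, adjusted p = 0.289) and was also apart. Cd300lf, a lipid-binding ITIM receptor, had 0.89 (SE 0.23, adjusted p = 0.249), and its groups overlapped. Pdcd1 and Milr1 were also among those higher, at 0.21 (limma adjusted p = 0.398) and 0.20 (adjusted p = 0.368), and the groups of Milr1 were apart. The gene that was lower was Clec12a, at -0.52 (SE 0.15, adjusted p = 0.298). Pdcd1, Milr1 and Clec12a were named after their values were seen. Sirpa, Lilrb4a, Cd300lf and Clec12a are all best known from myeloid cells. Of these, Clec12a alone was lower, and the part of myeloid cells in these values was not tested.

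**Figure D5:**
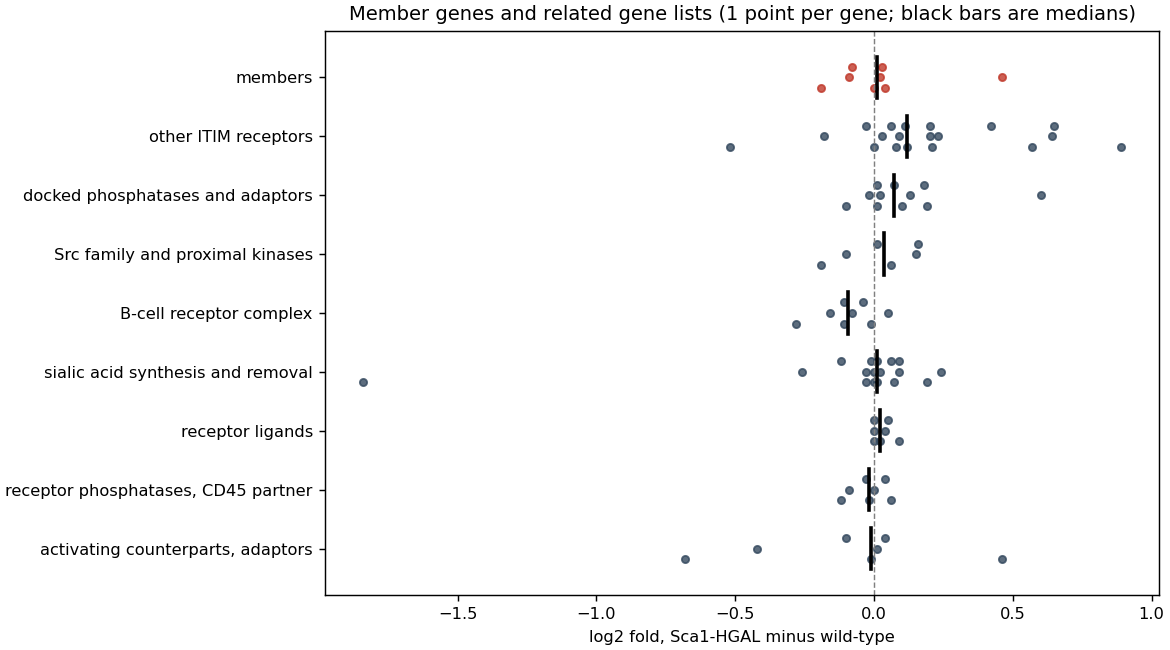
Log2 fold (Sca1-HGAL minus wild-type, horizontal) of each gene of the 8 members and of the related gene lists, 1 row per list, 1 point per gene and black bars at the medians. The list of other ITIM receptors has a median of 0.12, that of the members 0.01, and the point far to the left is St3gal5 at -1.84.

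Among phosphatases and adaptors that dock to phosphorylated ITIMs or hold Src kinases in check, 11 of 11 were measured, with a median log2 fold of 0.07. Of these, 3 had an unadjusted p under 0.05, all higher, which is 27.3% against 9.53% of all genes, and none passed the adjusted threshold. Ptpn11, the gene of SHP-2, differed by 0.18 log2 units (SE 0.08, limma adjusted p = 0.52), Grb2 had 0.19 (adjusted p = 0.399) and Ptpn22 had 0.60 (adjusted p = 0.426). Dok3, an adaptor that restrains B-cell signalling, had 0.13. Inpp5d, the gene of SHIP-1, had -0.02 (SE 0.06, adjusted p = 0.96), with a 95% confidence interval from -0.15 to 0.12. Csk, the kinase that adds the inhibitory phosphate CD45 removes, had 0.01 (SE 0.07, adjusted p = 0.976).

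Of 9 Src family and proximal kinases, 6 were measured and 3, Lyn among them, were not analysed here. Their median log2 fold was 0.03. At an unadjusted p under 0.05, 1 was higher, or 16.7% of the 6, against 9.53% of all genes. It was Yes1 at 0.15, whose mean was below log2 6 in both groups. Fyn had -0.19, Fgr 0.16 and Btk -0.10. Syk, the kinase the series title names, had 0.06 (SE 0.07, limma adjusted p = 0.828). The B-cell receptor complex and its coreceptors had a median of -0.09 over 8 measured genes of 9, with 7 negative and 1 positive. Cr2, the complement receptor CD21, had -0.28 (limma adjusted p = 0.494, unadjusted p = 0.036), Cd79a -0.11, Ms4a1 -0.11, Blnk -0.08 and Cd79b -0.04. Of 7 receptor tyrosine phosphatases and the CD45-associated protein, none had an unadjusted p under 0.05, against 9.53% of all genes. The median was -0.02. Ptprcap, which binds CD45, had -0.12, Ptprj -0.09, Ptprk 0.06 and Ptpre -0.03.

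Sialic acid genes were examined because CD22 and Siglec-G bind sialylated glycans. All 17 were measured, with a median log2 fold of 0.01. Here 1 gene passed the adjusted threshold, St3gal5, the GM3 synthase, which fell by 1.84 on the log2 scale (SE 0.12, limma adjusted p = 0.00048). St6gal1, which makes the linkage that CD22 binds, differed by 0.01 log2 units (SE 0.07, adjusted p = 0.976). Cmah, which makes the N-glycolyl form preferred by mouse CD22, had -0.03 (SE 0.07, adjusted p = 0.93). Casd1, a sialic acid acetyltransferase, had -0.26 (unadjusted p = 0.0034), St3gal1 0.24 and St6gal2 0.19, the last with means below log2 6. Ligands of the receptors were 7 measured genes of 9, with a median of 0.02. None of them had an unadjusted p under 0.05, against 9.53% of all genes. Sema4d, which encodes the CD72 ligand semaphorin 4D, had 0.02 (SE 0.08), and the collagen genes Col1a2, Col1a1 and Col4a1 had 0.09, 0.05 and 0.04. Activating counterparts and their adaptors were 7 measured genes of 12, with a median of -0.01. Fcer1g, the signalling chain that PIR-A uses, had 0.46 (SE 0.33, adjusted p = 0.71), with 0.83 without Sca1-HGAL replicate 3 and 0.21 without Sca1-HGAL replicate 4. The others named were Tyrobp -0.42 (SE 0.14, adjusted p = 0.37), Siglech -0.68 (SE 0.21, adjusted p = 0.342) and Cd300lb -0.10.

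Markers of B cells and of cells that also carry these receptors were read beside Pirb. B cell markers had a median log2 fold of -0.05 over 8 measured genes, with mean log2 levels from 12.67 to 12.76 in Sca1-HGAL arrays and from 12.76 to 12.78 in wild-type arrays. All 12 neutrophil markers had a positive log2 fold, with a median of 0.38, and their mean level was 7.60, 7.11, 6.56 and 6.92 in Sca1-HGAL arrays, against 6.35, 6.44, 6.95 and 6.54 in wild-type arrays. Mmp9 and Elane of that list had 0.34 and 0.40. Of 11 macrophage and monocyte markers, 6 were positive and 5 negative, with a median of 0.03 and mean levels from 7.39 to 7.88 in Sca1-HGAL arrays and from 7.35 to 7.78 in wild-type arrays. Adgre1, a surface receptor of macrophages, had 1.01 (adjusted p = 0.122) and Cd14 had 0.19. Dendritic cell markers had a median of 0.17, with Itgax at 0.48 and Clec9a at -0.34. Sca1-HGAL replicate 4, highest for Pirb, was highest for the macrophage list but not for the neutrophil list. It was also highest for the platelet and megakaryocyte list, at 8.25. Wild-type replicate 4, lowest for Pirb, was lowest for that list, at 7.28. The deposited values carry no detection calls, so no marker can be called absent, and the part of these cells in the Pirb value was not tested.

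Markers of B-cell subsets were read in the same way. B-1 markers had a median log2 fold of 0.99, with 9 of 9 positive and 7 at an unadjusted p under 0.05, which is 77.8% against 9.53% of all genes, among them Zbtb20 at 0.95 and Ahnak at 0.70. Their mean level was 9.67, 8.96, 8.24 and 8.57 in Sca1-HGAL arrays, against 7.92, 8.02, 8.10 and 8.001 in wild-type arrays. The array with the highest B-1 level, Sca1-HGAL replicate 1, was the second highest for Pirb, and Siglecg stood at 11.41 on it, the highest of its group. Sca1-HGAL replicate 2, next in B-1 level at 8.96, was the lowest of its group for Pirb, at 9.68. Sca1-HGAL replicate 4, highest for Pirb at 10.04, had a B-1 level of 8.57. Among marginal zone markers, Asb2 had -0.78 and Ackr3 -0.58. The 9 marginal zone markers had a median of -0.51, with 8 negative and 6 lower at an unadjusted p under 0.05 (66.7%). Their mean level ran from 9.54 to 9.61 in Sca1-HGAL arrays and from 9.93 to 10.25 in wild-type arrays, with wild-type replicate 4, lowest for Pirb, at 10.25. Follicular markers had a median of -0.35 over 5 measured genes, with 4 negative and 1 positive and log2 folds from -0.42 to 0.10. Fcer2a had -0.42 and Ccr7 -0.41. None of these genes passed the adjusted threshold with all arrays at equal weight. Without Sca1-HGAL replicate 3 the adjusted p of Zbtb20 was 0.0121, and with array weights that of Asb2 was 0.0488. The part of subset markers in the members' levels was not tested. Plasma cell markers had a median of -0.14, with 5 negative and 1 positive and log2 folds from -0.64 to 0.47. Slamf7 of that list had -0.64 (limma adjusted p = 0.0452 without Sca1-HGAL replicate 3) and Sdc1 had -0.43. T cell markers had 0.11, NK cell markers -0.15 and erythroid markers -0.13, and each of these signs turned under at least 1 alternative. The T cell median was -0.04 without Sca1-HGAL replicate 1, and the erythroid median was 0.14 without wild-type replicate 4. The NK cell median stayed negative when 1 array was left out, from -0.27 to -0.09. With only probe sets above the median level, the NK cell value was 0.12, that of Prf1 alone. Under that filter erythroid markers had 0.34, over Slc4a1 and Alas2 only.

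The genes whose levels were most like each member over the 8 arrays are given as a description, as the 3 highest Pearson r among 15723 other genes with a mean of at least log2 6. For Pirb they were Ube2e1 (r = 0.971), Thbs3 (0.97) and Lrig1 (0.964). For Cd72 they were Zfp940 (0.944), Prss51 (0.941) and F630111L10Rik (0.929), and for Lair1 Gas6 (0.967), Mir124a-2 (0.95) and Gm13213 (0.93). For Cd22 they were Fas (0.975), Tcl1b5 (0.964) and Ahcyl1 (0.964), and for Siglecg Eya3 (0.975), Kcnj4 (0.965) and Glb1l (0.965). For Pecam1 they were Mitf (0.964), Mir680-2 (0.96) and Tfap2e (0.934). For Ptpn6 they were Ndrg1 (0.963), 2610528A11Rik (0.959) and Jazf1 (0.958), and for Ptprc Atp2b1 (0.993), Ociad2 (0.976) and Slc39a10 (0.975). No member appeared among the 3 genes most like another member.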

How the data were processed

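The authors deposited RMA intensities on a linear scale (4.94 to 24302) for 8 Affymetrix Mouse Gene 1.0 ST arrays, per the submitters' processing notes for RMA. Its version was not given in the sources used here. Because RMA quantile-normalises, a shift common to most genes is not visible. Log2 was taken here, with no pseudocount or filter. Of 34760 probe sets, 21640 had 1 gene symbol, 1321 several and 11799 none listed. The 21640 stand for 19937 genes, each by its brightest probe set. limma 3.58.1 in R 4.3.3 (lmFit, eBayes, 2 groups, no covariate, two-sided) was adjusted by Benjamini-Hochberg over those 21640, and tested on simulated data. Groups came from sample titles, and no sample was left out.

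The members and gene lists were chosen with earlier results of these data known, so a pattern in them is no independent evidence. Text names all members, a fixed set, and up to 4 genes per pathway list and up to 2 per marker list by smallest p. By that rule none were taken from the B cell, T cell, NK cell, erythroid, platelet and endothelial lists. Pdcd1, Milr1 and Clec12a were named after their values were seen, and Prf1, Slc4a1 and Alas2 as genes left by a filter. Alternatives covered normalisation, dim probe sets, weights, the replicate block, priors, rows, an offset and leaving out arrays. The arrays with high Xist were left out as a choice made after seeing the data. Replicate numbers are shared between groups without a stated meaning.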

Additional observations from a re-analysis of the deposited data

Results flagged for a closer look

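Of 142 sets of 4 arrays examined, 10 had 1 array far from the other 3, and about 7.1 would by chance; highest and lowest are within the array's own group. Among the 8 members this held for 1 of 16 sets, Cd22, with Sca1-HGAL replicate 2 at 12.89 and the others at 12.62 to 12.64 in log2 intensity. On the same array Ptpn11 was at 10.003, against 9.68 to 9.73 on the other Sca1-HGAL arrays. Among wild-type arrays Sema4d was lowest in replicate 4, at 10.78, with the others at 10.83 to 10.84. The mean level of the list of other ITIM receptors was lowest in wild-type replicate 1, at 8.10. That of the sialic acid list was highest in Sca1-HGAL replicate 1, at 9.02, and in wild-type replicate 4, at 9.06. The receptor ligand list was lowest in Sca1-HGAL replicate 1, at 8.77. Platelet and megakaryocyte markers were highest in Sca1-HGAL replicate 4, at 8.25. In wild-type replicate 4, marginal zone markers were highest, at 10.25, and erythroid markers were highest, at 9.29.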

How the results depend on the processing

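No member gene passed an adjusted p under 0.05 under any of 20 alternatives. Of 160 member values, 151 kept their sign and 9 turned it, none larger than 0.041 in size. Pirb lay between 0.34 and 0.51 and was positive throughout, at 0.34 without wild-type replicate 4 and 0.37 without the arrays with high Xist. Ptprc was 0.026 after a second quantile normalisation and 0.005 with array weights, and Inpp5d was 0.022 and 0.009 under the same settings. With weights Csk was -0.009 and St6gal1 -0.019. Without the arrays with high Xist, Pecam1 was -0.041, Ptprk -0.030 and the marginal zone median -0.357. Leaving out 1 array at a time gave Ptprc -0.034 to 0.039, Cd22 -0.029 to 0.064, Lair1 -0.168 to 0.010, Pecam1 -0.003 to 0.063, Inpp5d -0.037 to 0.018, Csk -0.032 to 0.045, St6gal1 -0.040 to 0.058, Sema4d -0.028 to 0.090, Col4a1 -0.022 to 0.091, Ptpre -0.066 to 0.006, Cmah -0.072 to 0.004, the receptor ligand median -0.003 to 0.090 and the follicular median -0.503 to -0.252. Members apart numbered 1 to 3, with 3 without Sca1-HGAL replicate 1, where Siglecg and Ptpn6 joined Pirb. Members at an unadjusted p under 0.05 numbered 1 to 2, with 2 without wild-type replicate 2. The shares of all genes under these settings are not given here, and smaller groups separate more easily. These counts are therefore not read as results about the members.

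Probe sets past the adjusted threshold numbered 1, against 12 with array weights, 0 without variance sharing, 2 with a mean over a gene's probe sets, 9 at an adjusted p under 0.10, 2 once the arrays with high Xist were removed, and 1 to 40 when 1 array was left out, with 40 without Sca1-HGAL replicate 3. With the replicate number as a block, the count was 6, Pirb was 0.46 (adjusted p = 0.46) and Adgre1 passed (adjusted p = 0.0314). Deviations of arrays with the same number correlated at -0.16, 0.053, -0.134 and -0.01, and 1 of 8 arrays correlated best with its own number, so the numbers were not taken to pair samples. With both filters on dim probe sets the median of activating counterparts was -0.217. With the stricter filter, NK cell markers were 0.121, neutrophil 0.995, dendritic cell 0.482, plasmacytoid dendritic cell -0.179 and erythroid markers 0.34, over fewer genes. The NK cell value was that of Prf1 alone, and the dendritic cell value that of Itgax alone. The filters do not change the log2 fold of a gene that stays, so these medians moved with the genes left in each list. The cause of the changes in the count of probe sets was not tested, and 4 arrays per group limit all comparisons.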
